A study of Mus musculus with 8 samples.

Results

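Expression of the collagen genes was measured on mouse arrays in preparations of lung club cells, which secrete protein into the airways, from the genotypes Atgl KO/cTg and wt/cTg. The members were all genes whose symbol is Col, a number, a and a number, on probe sets annotated with exactly 1 symbol, with the probe set of the highest mean over the 8 arrays kept for each gene. This gave 44 collagen genes of 22180 genes on the array. By the form of the protein, 11 were placed among the fibrillar collagens, 8 among the basement membrane collagens and 25 among the other collagens. Atgl, now Pnpla2, encodes a lipase that takes the first fatty acid off stored triglyceride. Both genotypes carried cTg, which the labels do not expand, and the cells of Atgl KO/cTg are labelled as being without ATGL, with the deletion and its extent not given. Each genotype had 4 arrays, and a replicate below is the pool of mice behind an array, numbered in the order of the samples. The Atgl KO/cTg pools held 4 mice each (16 mice, aged 38 to 46 weeks) and the wt/cTg pools 3 or 4 (14 mice, aged 41 to 48 weeks), all untreated. The comparison asks whether collagen transcripts in these preparations differed between the genotypes.

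Collagens are trimers of chains that wind into a triple helix. Fibrillar collagens, above all types I, III and V, are made mainly by fibroblasts and form the fibrils that bear load in the walls of airways and vessels. Collagen IV forms the sheet of the basement membrane under epithelium and endothelium, and collagens XV and XVIII sit in the same zone. Collagen VI forms beaded filaments between fibrils and basement membranes. Collagen XVII and collagen XXIII are membrane proteins. The epithelial cells of the airway rest on a basement membrane but are not the usual source of fibrillar collagen.

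Pnpla2 itself ran from 6.70 to 7.16 (log2 signal) in Atgl KO/cTg and from 8.62 to 8.86 in wt/cTg, without overlap (difference -1.72, limma adjusted p = 0.000116), so signal remained at 0.304 of the control level. The club cell list of 10 genes, among them Scgb1a1 and Cyp2f2, averaged 11.64 to 11.79 in Atgl KO/cTg and 11.56 to 11.64 in wt/cTg, and all 10 genes lay above the level filter. The preparations also held transcripts of other cells. The mean log2 signal was 8.66 to 9.15 and 9.07 to 9.46 for 14 fibroblast genes, and 8.17 to 8.74 and 8.40 to 9.16 for 14 endothelial genes. In bulk RNA, fewer cells of a type and less RNA per cell cannot be told apart. A score of sex-linked transcripts (Xist minus the mean of Y-linked genes) lay between 3.15 and 5.23 in 7 pools and at -3.24 in wt/cTg replicate 4. Along the first principal component of the tested genes, which took 29.3% of the variance, replicate 2 of Atgl KO/cTg and replicate 4 of wt/cTg stood at the ends (-28.61 and 21.78), with the other pools between -2.97 and 6.52.

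No collagen gene passed the test between genotypes. Of the 44 members, 28 had a mean above the median of all probe sets (5.18) and were tested, and 16 lay at or below it. In limma (Benjamini-Hochberg adjustment over all 13112 genes tested, threshold 0.05), 0 of 28 collagen genes were called, with adjusted p from 0.524 to 0.987. The share of all tested genes called was 0.0991%, or 13 genes, with 0.0153% higher and 0.0839% lower in Atgl KO/cTg. At an unadjusted limma p under 0.05 there were 3 collagen genes, 2 lower and 1 higher in Atgl KO/cTg, which is 10.7% of those tested against 7.95% of all genes (4.56% lower and 3.39% higher). The pools of the genotypes overlapped for all 28, while 4.35% of all tested genes had groups that did not overlap. In an exact two-sided permutation test of each gene over the 70 arrangements of the pools, the smallest p was 0.0571. The design allows 0.0286, but p in this test cannot fall below 0.0571 where the groups overlap. The test therefore could not give p under 0.05 for these 28 genes and adds nothing to the overlap.

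Most differences lay slightly below 0. The log2 difference (the Atgl KO/cTg mean less that of wt/cTg) was below 0 for 19 of 28 collagen genes (67.9%, against 52.2% of all genes tested) and ran from -0.39 for Col6a3 to 0.34 for Col23a1. Its median was -0.13, against -0.01 over all genes tested. By class the median was -0.16 for 8 tested fibrillar genes, -0.13 for 8 basement membrane genes and -0.12 for 12 other genes. For Col1a1, Col1a2, Col3a1, Col5a1 and Col5a2 alone it was -0.27. These 5 are all the tested fibrillar genes below 0, so their lower median follows from the choice of genes. With the mean of each gene's probe sets the fibrillar median was -0.1. Without the level filter the fibrillar median was 0.03 over 11 genes, so its sign rests on the filter, and the median of the other collagens was -0.02. The median spread between pools of a genotype (SD) was 0.20 for the collagen genes and 0.17 for all genes tested.

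**Figure D1:**
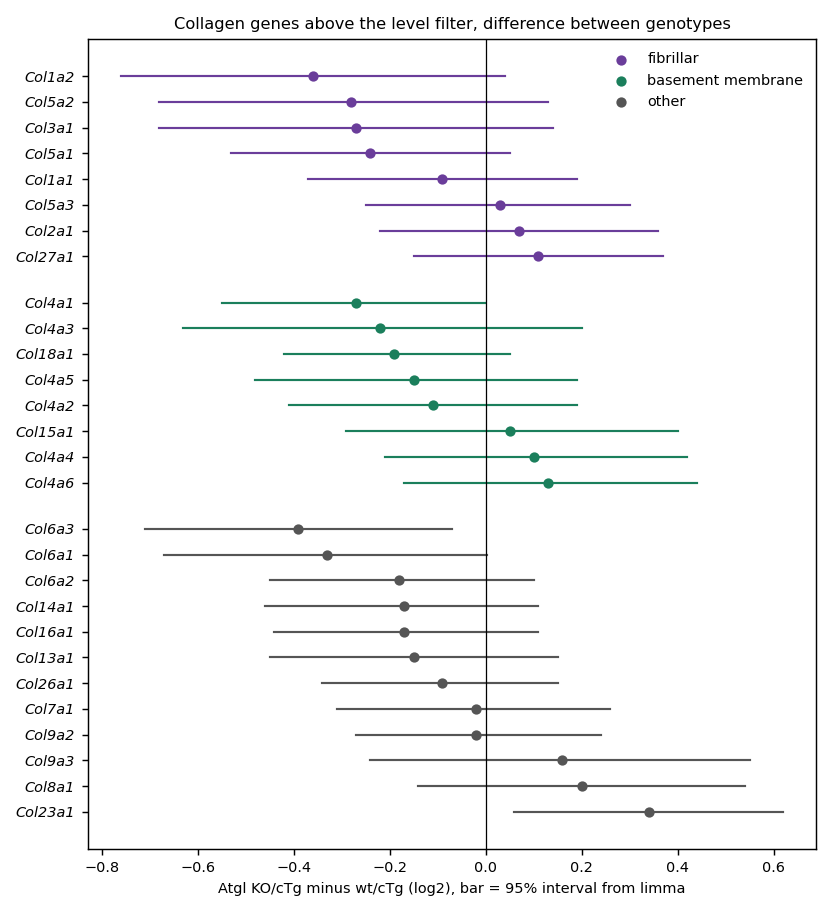
Difference between genotypes (x axis, log2 units, Atgl KO/cTg minus wt/cTg) for the 28 tested collagen genes, sorted within each class; points are limma estimates from 4 pools per genotype and bars their 95% intervals. Col6a3 has the lowest difference (-0.39) and Col23a1 the highest (0.34), and most bars cross 0.

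Among the fibrillar collagens, Col1a1, Col1a2, Col3a1, Col5a1 and Col5a2 read lower on average in Atgl KO/cTg, the other 3 tested genes read slightly higher, and none passed the test. Col1a2, a chain of collagen I, read 9.98, 9.49, 10.28 and 10.49 (log2 signal) in Atgl KO/cTg replicates 1 to 4 and 10.50, 10.51, 10.12 and 10.54 in wt/cTg replicates 1 to 4. Atgl KO/cTg replicate 2 was the lowest pool, and Atgl KO/cTg replicate 4 read just below the 3 highest wt/cTg pools. The difference was -0.36 (SE 0.18, 95% interval -0.76 to 0.04, limma adjusted p = 0.66), a level of 0.779 of the control. A further probe set of Col1a2 gave -0.07 (means 8.07 and 8.14), so the probe sets of this gene disagree on the size. They also disagree on the lowest pool, which there was Atgl KO/cTg replicate 1 at 7.74. Col3a1, the chain of collagen III, read 8.27, 8.58, 8.67 and 8.87 against 9.26, 9.02, 8.33 and 8.86. The wt/cTg replicate 3 pool was almost as low as the lowest Atgl KO/cTg pool, and the genotypes overlapped. The difference was -0.27 (95% interval -0.68 to 0.14, limma adjusted p = 0.769). Col1a1, the partner chain of collagen I, read 7.69, 7.87, 7.99 and 8.07 in Atgl KO/cTg and 8.16, 8.12, 7.66 and 8.05 in wt/cTg. Here the lowest pool of all was wt/cTg replicate 3, and the difference was -0.09 (95% interval -0.37 to 0.19).

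Collagen V, which nucleates collagen fibrils and sets their width, had differences of similar size in both of its main chains. Col5a1 read 5.91, 5.91, 6.35 and 6.33 in Atgl KO/cTg and 6.45, 6.26, 6.33 and 6.41 in wt/cTg. Atgl KO/cTg replicates 1 and 2 lay below every wt/cTg pool, and replicates 3 and 4 lay among them (difference -0.24, 95% interval -0.53 to 0.05, limma adjusted p = 0.70). The other probe set of Col5a1, at means of 5.26 and 5.24, gave 0.02. Col5a2 read 5.64, 6.17, 5.81 and 6.34 against 6.56, 6.22, 5.89 and 6.39. Its lowest pools were Atgl KO/cTg replicates 1 and 3, and its difference was -0.28 (95% interval -0.68 to 0.13, limma adjusted p = 0.765). The remaining fibrillar genes lay just above 0. Col5a3, the third chain of collagen V, ran from 5.51 to 5.88 and from 5.50 to 5.77 (difference 0.03), and its sign turned under quantile normalization (-0.0036) and median centring (-0.0031). Col27a1 ran from 5.81 to 6.14 and from 5.72 to 6.02 (0.11). Col2a1, the collagen of cartilage, ran from 5.08 to 5.52 and from 4.95 to 5.25 (0.07), close to the level filter. Of 9 airway cartilage markers, 7 lay below the filter (Acan, Matn1, Matn3, Hapln1, Cnmd, Snorc and Ucma), with Sox9 and Cytl1 above it.

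**Figure D2:**
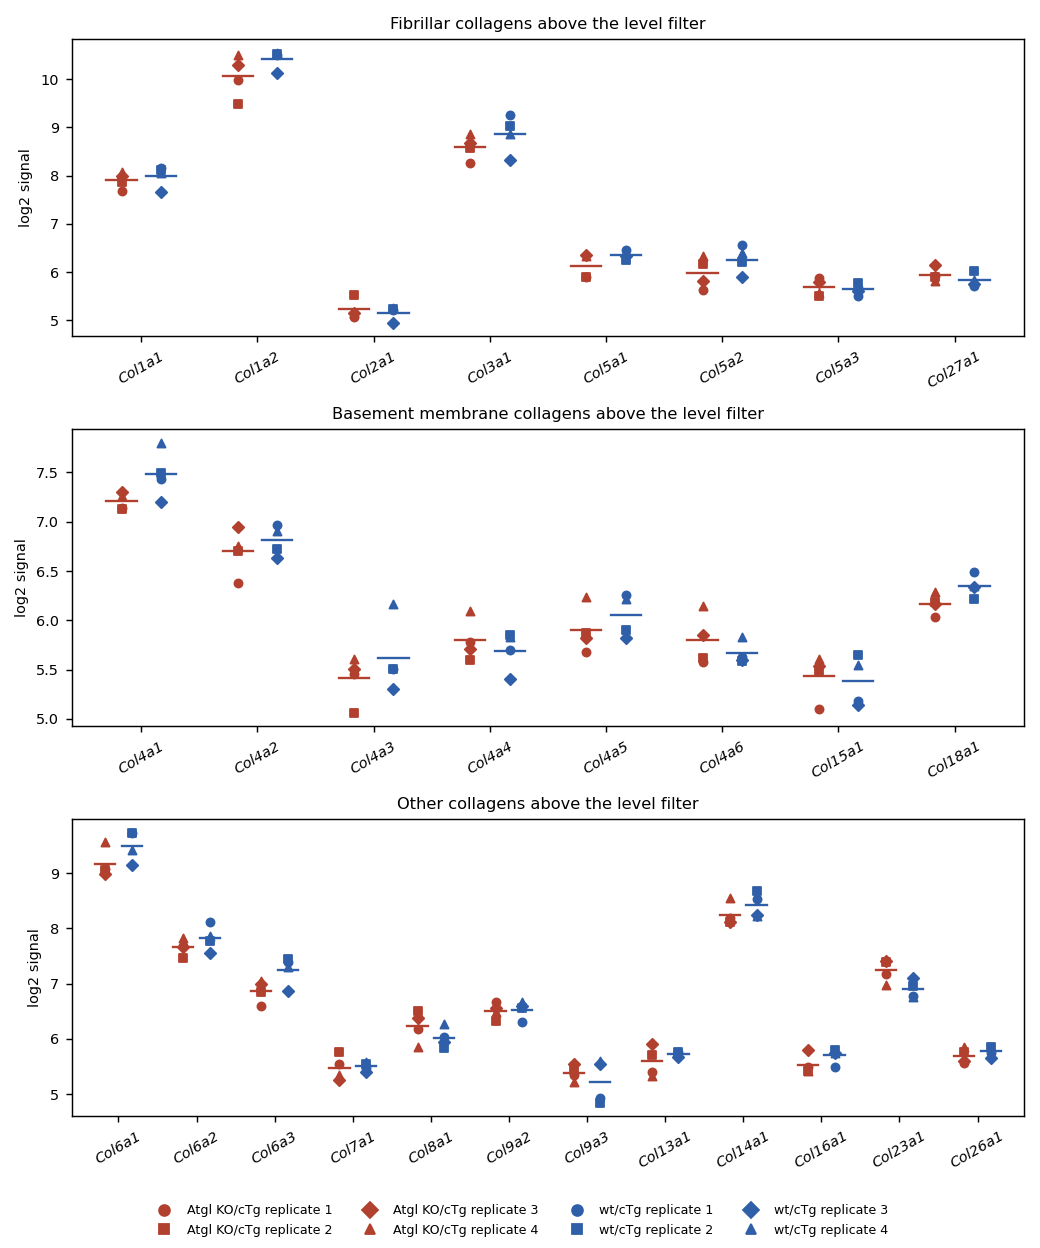
Log2 signal (y axis) of each tested collagen gene in every pool, with a panel per class; red is Atgl KO/cTg, blue wt/cTg, the symbol gives the replicate and the line the group mean of 4 pools. The wt/cTg replicate 3 pool (blue diamond) reads low for Col1a1, Col1a2 and Col3a1, at 7.66, 10.12 and 8.33.

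The promoters of Col1a2 and Col3a1 are shown because these chains assemble into the main fibrils and their signals were compared across pools. RefSeq windows (GRCm38.p6) run from 250 bases before to 50 bases after each annotated start and are written 5′ to 3′ on the gene's strand. Capitals mark the TATA box (TATAAA), the CCAAT box (CCAAT) and the GC box (GGGCGG), searched on both strands, so that a match on the other strand appears as its reverse complement. Col1a2 is at chr6:4505368-4505667 on the plus strand, and Col3a1 at chr1:45311288-45311587 on the plus strand.
Col1a2: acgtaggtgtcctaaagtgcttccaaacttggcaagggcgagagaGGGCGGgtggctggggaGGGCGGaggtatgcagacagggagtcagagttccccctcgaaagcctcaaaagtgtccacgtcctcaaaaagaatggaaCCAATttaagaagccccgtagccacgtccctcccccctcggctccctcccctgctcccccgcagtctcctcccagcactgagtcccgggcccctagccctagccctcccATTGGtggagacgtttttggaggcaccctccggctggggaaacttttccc
Col3a1: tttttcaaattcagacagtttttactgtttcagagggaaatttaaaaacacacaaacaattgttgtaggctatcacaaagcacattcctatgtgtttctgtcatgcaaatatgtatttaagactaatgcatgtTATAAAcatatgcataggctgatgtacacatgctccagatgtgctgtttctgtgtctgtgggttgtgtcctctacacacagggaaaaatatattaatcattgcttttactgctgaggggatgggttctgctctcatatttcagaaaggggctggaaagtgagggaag
The Col1a2 window held 2 GC boxes and 2 CCAAT boxes, and the Col3a1 window held 1 TATA box, 117 bases before the start. Windows were found for 35 of the 44 genes, 38 windows in all, and none for Col1a1, Col2a1, Col4a3, Col5a2, Col9a3, Col12a1, Col14a1, Col22a1 and Col26a1. A TATA box stood in 13.2% of the collagen windows and in 13.6% of all 32851 windows of this length, a CCAAT box in 34.2% and 37.4%, and a GC box in 60.5% and 35.7%. The median GC content was 59.8% in the collagen windows and 52.7% in all windows, and matches of different motifs overlapped in 0 of the 38. These are matches of letters and do not show that a factor binds.

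Among the basement membrane collagens, Col4a1 had the smallest limma p and Col18a1 the smallest exact permutation p (0.0857 and 0.0571, two-sided exact permutation). Neither was called by limma, and with overlapping groups neither could reach an exact permutation p under 0.05. Col4a1 and Col4a2 encode the chains of the common collagen IV, and Col4a1 read 7.14, 7.13, 7.30 and 7.26 in Atgl KO/cTg and 7.43, 7.49, 7.20 and 7.80 in wt/cTg. The wt/cTg pools other than replicate 3 read above every Atgl KO/cTg pool. The difference was -0.27 (SE 0.12, unadjusted p = 0.049, limma adjusted p = 0.622), a level of 0.827 of the control. With each array left out in turn, Col4a1 kept an unadjusted limma p under 0.05 only without wt/cTg replicate 3, and it lost it under quantile normalization, with array weights and with the sex score as a covariate. Col4a2 read 6.38, 6.70, 6.95 and 6.75 against 6.97, 6.72, 6.63 and 6.91. These groups overlapped widely, and the difference was -0.11 (95% interval -0.41 to 0.19, limma adjusted p = 0.884).

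Col4a1 and Col4a2 lie next to each other on chromosome 8 and are read in opposite directions from starts that are close together, so their promoter windows share sequence. They are shown with the 78 shared bases in capitals, which are the reverse complement of each other because each window is written on its own gene's strand. Col4a1 is at chr8:11312777-11313076 on the minus strand and Col4a2 at chr8:11312555-11312854 on the plus strand (RefSeq, GRCm38.p6).
Col4a1: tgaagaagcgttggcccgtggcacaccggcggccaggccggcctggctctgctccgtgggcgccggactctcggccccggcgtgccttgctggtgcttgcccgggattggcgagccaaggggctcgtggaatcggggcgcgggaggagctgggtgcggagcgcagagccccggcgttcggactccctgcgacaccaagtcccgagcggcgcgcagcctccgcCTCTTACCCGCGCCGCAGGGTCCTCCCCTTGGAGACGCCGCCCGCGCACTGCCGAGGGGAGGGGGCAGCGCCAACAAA
Col4a2: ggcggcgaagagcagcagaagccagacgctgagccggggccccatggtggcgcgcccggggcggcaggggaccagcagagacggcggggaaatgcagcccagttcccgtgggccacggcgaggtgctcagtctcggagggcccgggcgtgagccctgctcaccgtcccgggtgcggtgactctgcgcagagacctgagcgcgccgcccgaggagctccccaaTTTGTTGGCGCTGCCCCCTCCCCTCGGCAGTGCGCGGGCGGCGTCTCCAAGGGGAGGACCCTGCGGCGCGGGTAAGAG
The GC content was 74.0% in the first window and 73.7% in the second, above the median of all windows. The signals of this head-to-head pair had a Pearson correlation of 0.59 over the 8 pools (exact permutation p = 0.128).

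The chains of the second form of collagen IV, found under alveolar and kidney epithelium, gave no common direction. Col4a3 read 5.45, 5.06, 5.51 and 5.61 in Atgl KO/cTg and 5.51, 5.51, 5.30 and 6.16 in wt/cTg. Its highest pool was wt/cTg replicate 4 and its lowest Atgl KO/cTg replicate 2, and the difference of -0.22 (95% interval -0.63 to 0.20, limma adjusted p = 0.824) became 0.08 without those 2 pools. Its neighbour and partner Col4a4 read 5.78, 5.60, 5.71 and 6.09 against 5.70, 5.85, 5.40 and 5.83, a difference of 0.10 (95% interval -0.21 to 0.42, limma adjusted p = 0.904). Col4a5, the third partner, ran from 5.68 to 6.24 and from 5.82 to 6.26 (difference -0.15), and Col4a6, its neighbour on the X chromosome, from 5.58 to 6.14 and from 5.59 to 5.83 (0.13). The alveolar type 1 markers, 8 genes that include Ager and Pdpn, averaged 8.35 to 8.80 in 7 pools and 9.35 in wt/cTg replicate 4, and 7 of the 8 differences lay below 0. Their part in the Col4a3 values was not tested.

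Collagens XV and XVIII carry heparan or chondroitin sulphate chains and release antiangiogenic fragments. Col18a1 read lower on average in Atgl KO/cTg, and the difference of Col15a1 was near 0. Col18a1 read 6.03, 6.19, 6.16 and 6.29 in Atgl KO/cTg and 6.49, 6.22, 6.34 and 6.35 in wt/cTg. The Atgl KO/cTg replicates 1, 2 and 3 lay below every wt/cTg pool. The difference was -0.19 (SE 0.11, 95% interval -0.42 to 0.05, limma adjusted p = 0.712). Col15a1 read 5.10, 5.49, 5.54 and 5.61 against 5.18, 5.65, 5.14 and 5.55. Low and high pools occurred in both genotypes, and the difference was 0.05 (95% interval -0.29 to 0.40, limma adjusted p = 0.965). Its sign turned in 3 of the alternative fits.

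Collagen VI had 3 of its 6 chains above the level filter, and these lay at -0.39, -0.33 and -0.18. Col6a3, the large chain of the trimer, read 6.59, 6.85, 6.99 and 7.04 in Atgl KO/cTg and 7.40, 7.44, 6.87 and 7.30 in wt/cTg. The wt/cTg replicates 1, 2 and 4 lay above every Atgl KO/cTg pool, and wt/cTg replicate 3 lay among the Atgl KO/cTg pools. The difference was -0.39 (SE 0.15, 95% interval -0.71 to -0.07, unadjusted p = 0.0225, limma adjusted p = 0.524), a level of 0.765 of the control. Col6a1 read 9.07, 9.06, 8.99 and 9.57 against 9.73, 9.72, 9.15 and 9.42, where Atgl KO/cTg replicate 4 lay among the wt/cTg pools and the other 3 below them. Its difference was -0.33 (SE 0.15, unadjusted p = 0.0519, limma adjusted p = 0.63), and its other probe set gave -0.34 (means 8.28 and 8.63). Col6a2, its neighbour on chromosome 10, read 7.68, 7.46, 7.66 and 7.83 against 8.12, 7.77, 7.56 and 7.87. Most of these pools overlapped, with wt/cTg replicate 1 the highest, and the difference was -0.18 (95% interval -0.45 to 0.10, limma adjusted p = 0.784). Col6a4, Col6a5 and Col6a6, the later-found chains, all lay below the level filter, at means of 4.37, 3.96 and 4.80, with differences of 0.02, -0.02 and -0.04.

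The promoter of Col6a3, the tested gene with the lowest difference, held none of the 3 motifs in its window at chr1:90843922-90844221 on the minus strand (RefSeq, GRCm38.p6).
Col6a3: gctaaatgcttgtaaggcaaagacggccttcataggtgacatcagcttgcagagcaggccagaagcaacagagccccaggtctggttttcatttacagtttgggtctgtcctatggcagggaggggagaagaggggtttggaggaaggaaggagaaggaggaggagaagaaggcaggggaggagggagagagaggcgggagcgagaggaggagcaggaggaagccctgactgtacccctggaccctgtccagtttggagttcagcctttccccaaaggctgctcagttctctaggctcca
Col23a1, the tested gene with the highest difference, held 1 GC box in its promoter window at chr11:51289670-51289969 on the plus strand. The match is on the other strand, in capitals, 11 bases before the start.
Col23a1: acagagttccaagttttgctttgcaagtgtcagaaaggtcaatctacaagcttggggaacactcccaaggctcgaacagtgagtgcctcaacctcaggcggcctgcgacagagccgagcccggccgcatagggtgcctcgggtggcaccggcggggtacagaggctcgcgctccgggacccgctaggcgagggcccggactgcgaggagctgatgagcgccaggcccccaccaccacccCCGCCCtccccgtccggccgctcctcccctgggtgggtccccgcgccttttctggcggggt
Col23a1 encodes a transmembrane collagen that can be shed from the cell surface. It read 7.18, 7.39, 7.41 and 6.97 in Atgl KO/cTg and 6.78, 6.96, 7.11 and 6.75 in wt/cTg. Atgl KO/cTg replicates 1, 2 and 3 lay above every wt/cTg pool, and replicate 4 lay between wt/cTg replicates 2 and 3. The difference was 0.34 (SE 0.13, 95% interval 0.06 to 0.62, unadjusted p = 0.0219, limma adjusted p = 0.524), or 1.27 times the control level.

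The other membrane and network collagens were close to 0 or scattered. Col13a1, a transmembrane collagen of cell contacts, read 5.40, 5.71, 5.91 and 5.33 in Atgl KO/cTg and 5.77, 5.76, 5.67 and 5.73 in wt/cTg. The Atgl KO/cTg pools lay on both sides of the narrow wt/cTg range, with a difference of -0.15 (95% interval -0.45 to 0.15, limma adjusted p = 0.835). Col8a1, a short-chain collagen of vessel walls, read 6.18, 6.50, 6.37 and 5.85 against 6.04, 5.83, 5.95 and 6.27. Its difference was 0.20 (95% interval -0.14 to 0.54, limma adjusted p = 0.796), with Atgl KO/cTg replicate 4 at the low end. Col7a1, which forms the anchoring fibrils under stratified epithelium, ran from 5.25 to 5.77 and from 5.40 to 5.58, a difference of -0.02. Col26a1 ran from 5.57 to 5.85 and from 5.66 to 5.86 (-0.09).

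Among the fibril-associated collagens, which coat fibrils and link them to other matrix, 4 of 9 genes were tested and 3 lay below 0. Col14a1, a fibroblast product that regulates fibril growth, read 8.19, 8.12, 8.12 and 8.55 in Atgl KO/cTg and 8.53, 8.67, 8.24 and 8.23 in wt/cTg. Atgl KO/cTg replicate 4 stood with the high wt/cTg pools, and the difference was -0.17 (95% interval -0.46 to 0.11, limma adjusted p = 0.796). Col16a1 ran from 5.41 to 5.80 and from 5.49 to 5.79 (difference -0.17, limma adjusted p = 0.795). Of the collagen IX chains, Col9a3 ran from 5.21 to 5.54 and from 4.84 to 5.59 (0.16) and Col9a2 from 6.33 to 6.67 and from 6.31 to 6.66 (-0.02), while Col9a1 lay below the filter at 4.24.

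The 16 members at or below the level filter had means of 3.71 to 5.18 and were not tested in the main comparison. They were Col10a1, Col11a1, Col11a2, Col12a1, Col17a1, Col19a1, Col20a1, Col22a1, Col24a1, Col25a1, Col28a1, Col6a4, Col6a5, Col6a6, Col8a2 and Col9a1. Signal above background could not be tested from these values. Of them, Col12a1, a fibril-associated collagen of dense connective tissue, had groups that did not overlap. It read 4.46, 4.31, 4.52 and 4.40 in Atgl KO/cTg and 4.89, 4.67, 4.69 and 4.99 in wt/cTg, so each Atgl KO/cTg pool lay below each wt/cTg pool. In a fit without the level filter, which called 0.0316% of all genes, its difference was -0.39 (SE 0.11, unadjusted p = 0.00596, limma adjusted p = 0.558), and it did not pass. Of all 9068 genes at or below the filter, 0.915% had groups that did not overlap with Atgl KO/cTg lower and 3.05% in either direction. Col17a1, a hemidesmosome collagen that anchors basal epithelial cells, read 4.74, 5.37, 4.98 and 5.08 against 4.97, 4.94, 4.89 and 4.88, with its highest and lowest pools both in Atgl KO/cTg (0.12).

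The signals of some chains that build the same fibril or filament followed each other over the pools. For 9 pairs chosen after the data were seen, Pearson's r over the 8 pools ran from 0.51 to 0.96. Because of that choice the p-values below are descriptions, and no r was computed for other gene pairs. The closest pair was Col1a1 and Col3a1, with r = 0.96 (exact permutation p = 7.44e-05, Benjamini-Hochberg 0.00067 over the 9 pairs) and Spearman's rho = 0.98 (exact permutation p = 0.000397, adjusted 0.00357). Without replicate 1 of Atgl KO/cTg and replicate 3 of wt/cTg, the pools farthest from the median of Col1a1, r was 0.94, and after the mean of each genotype was removed it was 0.97. The r over the 8 pools together therefore stayed high with the difference between the genotype means taken out. Col6a1 and Col6a3 had r = 0.84 and Col6a1 and Col6a2 r = 0.79 (exact permutation p = 0.0147 and 0.0156, both adjusted to 0.0468), with rho = 0.79 for both (exact permutation p = 0.0279, adjusted 0.0741), so the rank measure did not pass. Without the 2 pools farthest from the median of Col6a1, the wt/cTg replicates 1 and 2, r was 0.62 and 0.77, and after the genotype means were removed it was 0.74 and 0.72. The other 6 pairs did not pass by either measure. Among them, Col1a1 and Col1a2 had r = 0.65 (rho 0.74, exact permutation p = 0.0723 and 0.0458, adjusted 0.111 and 0.0741). Without replicate 1 of Atgl KO/cTg and replicate 3 of wt/cTg, r of Col1a1 and Col1a2 was 0.88, and after the genotype means were removed it was 0.63. On the Col1a2 probe set used, Atgl KO/cTg replicate 2 was the lowest pool and departs from the line of the other pools. On the other Col1a2 probe set this pool read 8.12, within an Atgl KO/cTg range of 7.74 to 8.26. No r is given for that probe set. The pairs share chains, and with 4 pools per genotype no correlation within a genotype is given.

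**Figure D3:**
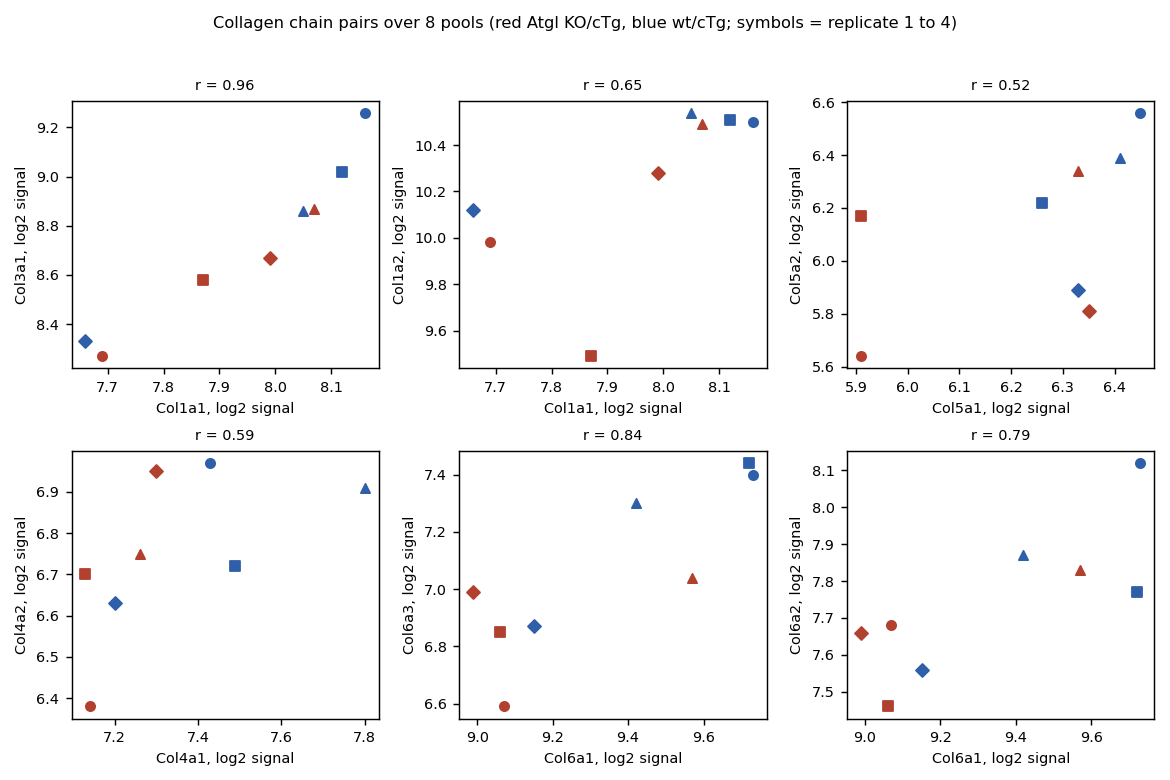
Log2 signals of 6 pairs of collagen chains in the 8 pools, red for Atgl KO/cTg and blue for wt/cTg, with Pearson's r above each panel. Col1a1 and Col3a1 follow a line on which pools of both genotypes mix (r = 0.96), while Col5a1 and Col5a2 scatter (r = 0.52).

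Which collagen genes reached an unadjusted p under 0.05 changed when single pools were left out, which also lowers the number of arrays. Processing changed it too, as Col4a1 dropped out under quantile normalization and Col6a1 entered under median centring. In wt/cTg, replicate 3 was the lowest pool for 17 of the 28 tested genes, among them 5 of 8 fibrillar and 6 of 8 basement membrane genes, and it was the highest for 1. In Atgl KO/cTg, replicate 1 was the lowest for 12 genes and replicate 4 the highest for 15. Without wt/cTg replicate 3 the unadjusted count was 6 (7.74% of all genes in that fit), with Col1a2, Col3a1, Col4a1, Col6a1 and Col6a3 lower and Col23a1 higher. Without Atgl KO/cTg replicate 4 it was also 6 (9.56% of all genes), with Col1a2, Col6a1, Col6a3 and Col14a1 lower and Col8a1 and Col23a1 higher. Leaving out Atgl KO/cTg replicate 1 or 2 gave 1 gene, as did leaving out wt/cTg replicate 2 or 4. The count was 2 without Atgl KO/cTg replicate 3 and 0 without wt/cTg replicate 1. It was also 0 when the pools at -28.61 and 21.78 on the first component were left out together. The share of all genes in these other fits ran from 5.51% to 7.95%. The sample titles carry mouse numbers that fall into 4 runs of close numbers, of which 3 hold both genotypes and wt/cTg replicate 3 stands alone. With these runs as a block, a fit added after the data were seen in which wt/cTg replicate 3 does not bear on the difference, the same 6 genes had an unadjusted p under 0.05 as without that pool (6.84% of all genes). Within the runs, Col6a3 differed by -0.68, -0.45 and -0.26 and Col23a1 by 0.51, 0.45 and 0.22. Each such value sets 1 wt/cTg pool against 1 or 2 Atgl KO/cTg pools. Col1a2, Col4a1, Col4a3, Col5a2, Col6a2, Col18a1 and Col26a1 also lay below 0 in every run. Col1a1 (-0.38, -0.13 and 0.03) and Col3a1 (-0.84, -0.35 and 0.01) were close to 0 in the last run and differed in sign. In each of these fits 0 collagen genes were called after adjustment.

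Markers of the cells that make most collagen also lay mostly below 0. In the fibroblast list 13 of 14 tested genes lay below 0 (median -0.33), and its mean log2 signal was 8.66, 8.80, 9.08 and 9.15 in Atgl KO/cTg and 9.44, 9.16, 9.07 and 9.46 in wt/cTg. The fibrillar collagen mean was 6.80, 6.87, 7.03 and 7.08 against 7.17, 7.15, 6.83 and 7.14 in the same pools. In both lists Atgl KO/cTg replicates 1 and 2 were the lower pools of their genotype and replicate 3 was the lowest pool of wt/cTg. Fgf10 was the fibroblast marker below the filter. Tcf21, a mesenchymal transcription factor named after its values were seen, ran from 7.60 to 8.65 and from 8.76 to 9.37 (SE of the difference 0.22, limma adjusted p = 0.253). Of 11 smooth muscle and pericyte genes 8 lay below 0 (median -0.33, range of the list mean 5.95 to 6.30 and 6.19 to 6.73), with Lmod1 below the filter. Of 14 endothelial genes 11 lay below 0 (median -0.29), and all were above the filter. None of these 3 lists had a member past the threshold, and their part in the collagen values was not tested. In the alveolar type 2 list all 9 genes lay below 0 (median -0.76) and 4 fell past the limma threshold (adjusted p under 0.05, where 0.0839% of all tested genes fell), with list means of 10.13 to 10.37 and 10.61 to 11.13. Mesothelial markers lay above 0 for 6 of 7 genes (median 0.10). Of the basal cell markers 3 of 4 tested genes lay below 0 (median -0.08), with Ngfr below the filter. For Schwann cells all 4 markers on the array lay below it. Ciliated cell markers lay above 0 for 7 of 7 genes (median 0.26), club cell markers for 8 of 10 (0.12) and leukocyte markers for 4 of 9 (-0.0012, with Ly6g below the filter).

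**Figure D4:**
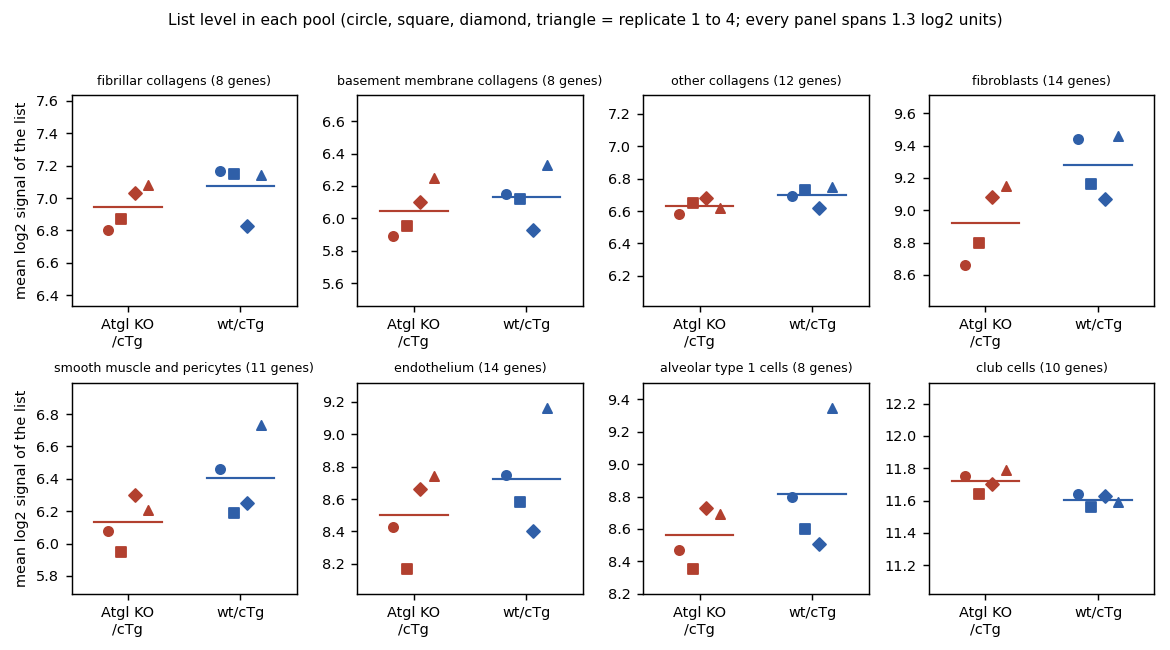
Mean log2 signal (y axis) of the tested genes of 3 collagen classes and 5 marker lists in each pool; red is Atgl KO/cTg, blue wt/cTg, symbols give the replicate and lines the mean of 4 pools. The fibrillar collagens ran from 6.80 to 7.08 in Atgl KO/cTg and from 6.83 to 7.17 in wt/cTg, and the fibroblast markers from 8.66 to 9.15 and from 9.07 to 9.46.

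The genes that fold, cut, cross-link, bind and degrade collagen were described with the same fit, and 0 of them passed. Genes named below had the smallest p of their list. Groups did not overlap for 2 of 19 folding genes, 1 of 12 fibril-binding genes, 1 of 9 receptors and 1 of 9 degrading enzymes and inhibitors. They did not overlap for 0 of 9 cleavage and cross-linking genes and 0 of 16 basement membrane genes, against 4.35% of all tested genes. Of 19 tested genes of folding and modification in the endoplasmic reticulum 14 lay below 0 (median -0.07). P4ha1, a catalytic subunit of prolyl 4-hydroxylase, ran from 7.41 to 7.73 in Atgl KO/cTg and from 7.76 to 8.08 in wt/cTg. Its groups did not overlap, and its difference was -0.35 (SE 0.10, limma adjusted p = 0.433). Serpinh1, the collagen chaperone HSP47, ran from 7.58 to 7.69 and from 7.74 to 8.27, also without overlap (-0.30, SE 0.12, limma adjusted p = 0.561). Tmem38b, a channel of the endoplasmic reticulum, was at 0.21 (limma adjusted p = 0.656). Of 9 genes of propeptide cleavage and cross-linking 5 lay below 0 (median -0.06). Pcolce2, an enhancer of procollagen cleavage, ran from 8.87 to 9.56 and from 9.54 to 10.12 (-0.58, SE 0.17, limma adjusted p = 0.433). The cross-linking oxidases Loxl1 and Lox were at -0.37 and -0.32 with groups that overlapped.

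Of 12 tested fibril-binding proteoglycans and partners 10 lay below 0 (median -0.21). Aspn, a small leucine-rich protein that binds collagen I, ran from 5.03 to 6.03 in Atgl KO/cTg and from 6.25 to 6.48 in wt/cTg, without overlap (-0.80, SE 0.20, limma adjusted p = 0.329). Ogn was at -0.42 (limma adjusted p = 0.446), and Postn, an adaptor of collagen cross-linking, was at -0.80 with a range of 6.45 to 8.60 in Atgl KO/cTg (limma adjusted p = 0.60). Of 16 basement membrane genes that are not collagens 13 lay below 0 (median -0.20). The laminin chains Lama4, Lamb1 and Lamb3 were at -0.53, -0.46 and -0.52, with limma adjusted p of 0.446, 0.524 and 0.446.

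Collagen receptors gave 5 of 9 genes below 0 (median -0.13). Itgb1, the integrin chain common to the collagen-binding integrins, ran from 10.06 to 10.10 and from 10.18 to 10.28, without overlap (-0.15, SE 0.06, limma adjusted p = 0.547). Adgrg1, a receptor for collagen III, was at 0.31 (limma adjusted p = 0.446) and Mrc2, which takes up collagen fragments, at -0.29 (0.66). The degrading enzymes and their inhibitors had 5 of 9 genes above 0 (median 0.04) and the widest range of these 6 lists, from -0.45 to 0.87. Ctsk, a lysosomal collagenase, ran from 7.97 to 8.84 in Atgl KO/cTg and from 7.50 to 8.05 in wt/cTg (0.79, SE 0.19, limma adjusted p = 0.293). Mmp8, the neutrophil collagenase, was at 0.87 (SE 0.25, limma adjusted p = 0.40), beside the neutrophil genes S100a8 and S100a9, named after their values were seen, at 0.49 and 0.56 (limma adjusted p = 0.535 and 0.524). The leukocyte list as a whole had a median of -0.0012, and Mmp9, another protease of neutrophils, was at 0.04 (limma adjusted p = 0.986). Their part in the Mmp8 value was not tested. Timp3, an inhibitor bound to the matrix, ran from 10.02 to 10.63 and from 10.67 to 10.97, without overlap (-0.45, SE 0.14, limma adjusted p = 0.446).

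**Figure D5:**
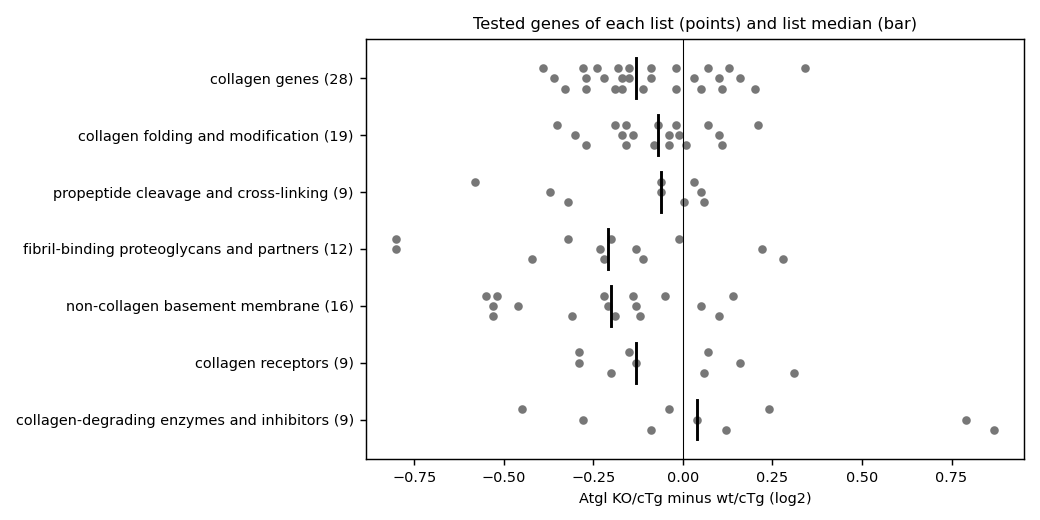
Difference between genotypes (x axis, log2 units, Atgl KO/cTg minus wt/cTg) of every tested gene (points, spread vertically for legibility) of the collagen genes and 6 related lists, with the number of genes in brackets and the list median as a bar. The medians lie between -0.21 and 0.04, and Ctsk and Mmp8 (0.79 and 0.87) lie at the upper end.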

How the data were processed

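The deposited table holds log2 signals, 1 per probe set and array. That they are log2 was judged from their range (1.85 to 13.54) and from array medians of 5.12 to 5.24, which are close but not equal. Per the labels' protocols, total RNA (miRNeasy Micro kit, DNase on the column) was amplified and labelled with biotin (NuGEN Ovation Pico WTA). The sources used here do not give array software, background correction or normalization, and the number of arrays limits the precision. Of 41345 probe sets, 23521 had 1 symbol, 1814 several and 16010 none in the platform annotation; only the first were used. Levels of different probe sets were not compared.

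Atgl KO/cTg was compared with wt/cTg (4 arrays each, groups from the genotype label) with limma 3.58.1 in R 4.3.3, with a variance trend, two-sided, on 13112 genes with a mean above 5.18, with Benjamini-Hochberg adjustment at 0.05. The level of a list in a pool averages the log2 values of its tested genes. Tests were also run on simulated data. The members and lists were chosen with earlier results of these data known. Pool values are given for a fixed list of collagen genes and for Col23a1. Other named members had the smallest p of their class and direction, up to 3. Of each related list up to 3 genes with the smallest p were named, and Mmp9 was added outside this rule. Alternatives covered the filter, variance prior, normalization, centring, array weights, probe sets, age, the sex score, runs of mouse numbers and left-out arrays. Figures were drawn with matplotlib 3.10.9.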

Additional observations from a re-analysis of the deposited data

Results flagged for a closer look

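In 64 groups of 4 pools, 6 had a pool far from the other 3 (by Dixon's test of the gap against the group's range, which chance passes in about 1 of 20 groups). Of these, 3 concerned wt/cTg replicate 3: Col1a2 at 10.12 where the nearest pool was at 10.50, Col2a1 at 4.95 (nearest 5.22), and the mean of the fibrillar collagens at 6.83 (nearest 7.14), which contains both genes. Col6a1 in Atgl KO/cTg replicate 4 was at 9.57 (nearest 9.07). These values are from the probe set used for each gene. On the other probe set of Col6a1 this pool read 8.48 (nearest 8.37), so it did not stand apart there. On the other probe set of Col1a2, wt/cTg replicate 3 read 7.83 (nearest 8.19). Col4a6 in wt/cTg replicate 4 was at 5.83 (nearest 5.63). Col16a1 in wt/cTg replicate 1 was at 5.49 (nearest 5.75).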

How the results depend on the processing

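In all alternatives the count of collagen genes called by limma was 0. The count over all genes was 13, and was 7 without the level filter, 7 with age in the model, 1 without the variance trend or with quantile normalization, 23 with array weights, 3 with runs of mouse numbers as a block (added after the data were seen), 8 without both end arrays (replicate 2 of Atgl KO/cTg, replicate 4 of wt/cTg), and 1 to 25 with each array left out. The fibrillar median was 0.03 and the other collagens' median -0.02 without the filter, which adds members at or below the array's median, and the latter -0.17 with a stricter filter. With each array left out, the medians ran from -0.23 to -0.09 (fibrillar), -0.18 to -0.04 (basement membrane) and -0.14 to -0.08 (other), and 0 to 6 collagen genes had an unadjusted p under 0.05, 6 with the block of number runs and 0 without both end arrays. Of 27 named genes, 22 kept their direction in all 19 alternatives in which they were fitted. The others were Col4a3, which moved from -0.22 to 0.08 without both end arrays, and 4 genes near 0: Col5a3 (-0.0036 with quantile normalization, -0.0031 with median centring), Col2a1 (-0.0005 without both end arrays, -0.02 with the block), and, with each array left out, Col5a3 from -0.04 to 0.09, Col2a1 from -0.03 to 0.12, Col7a1 from -0.12 to 0.05 and Col15a1 from -0.03 to 0.16. The cause was not tested. No paired analysis was possible because the labels give no shared replicate numbers and do not say which pools form a set, and the number runs do not match pools 1 to 1.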
